A study of Mus musculus with 8 samples.

Results

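The S100 proteins are small calcium sensors of the EF-hand type, found in vertebrates only, which change shape on binding calcium and then dock onto partner proteins. In skin they are known as products of keratinocytes, hair follicle cells, fibroblasts and myeloid cells, and several of them are secreted and act as alarm signals in inflamed epidermis. Most of their genes lie in a cluster beside the epidermal differentiation genes, where the S100-fused-type genes such as trichohyalin and filaggrin carry an S100 domain in front of a long repeat. Here 10 genes of the family were followed in mouse skin, taken as all probes whose RefSeq accession belongs to S100a3, S100a4, S100a6, S100a7a, S100a8, S100a9, S100a10, S100a11, S100a13 or S100a14. The array carried 11 probes for these 10 genes, of 21154 genes named in all. All 11 probes were tested, so that no member was lost to the filter on dim spots.

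Expression was measured in whole skin of female mice of 4 groups with 2 arrays each: CD109-/- skin 24 h after DMBA, CD109+/+ skin 24 h after DMBA, untreated CD109-/- skin and untreated CD109+/+ skin. DMBA is the polycyclic hydrocarbon that starts tumours in the 2-stage skin model. The deposited descriptions of the untreated arrays give acetone, the solvent of DMBA, at the same time point. By the study's methods, the CD109+/+ mice were FVB/N and the CD109-/- mice had been backcrossed onto FVB/N. CD109 is a surface protein reported to hold TGF-beta signalling back in human keratinocytes. The study found this signalling raised in whole CD109-/- mouse skin, whereas its authors had earlier seen no effect in mouse epidermis. The labels give neither the age of the mice behind these arrays nor whether an array held 1 animal or a pool, and the p-values therefore measure only the spread between samples. All 8 arrays lay on 1 slide, and each treatment filled a row of its own, so that an effect of the row and one of DMBA cannot be told apart. Between 63.6% and 67.0% of the spots were well above background on each array and 0 were saturated. Values are log2 intensities relative to the 75th percentile of the array, called the log2 signal. Levels are comparable between arrays for 1 probe, but not between probes. A summed intensity over the probes of a list is therefore weighted by its brighter probes. In whole tissue, fewer cells of a type and less RNA per cell cannot be told apart.

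Cd109 itself was the check of the labels. Its log2 signal was -7.85 and -7.52 in DMBA-treated CD109-/- skin, against 1.09 and 1.67 in DMBA-treated CD109+/+ skin. For the label untreated CD109-/- it was 1.89 in replicate 1 and -7.90 in replicate 2, and for untreated CD109+/+ it was 2.29 in replicate 1 and -6.28 in replicate 2. The array labelled untreated CD109-/- replicate 1 and the array labelled untreated CD109+/+ replicate 2 thus ran against their labels. Comparisons are given as labelled and, where stated, with these 2 arrays exchanged, which describes these arrays and is no independent evidence for an effect of the genotype. Arrays are also set side by side by Cd109 signal, 4 low and 4 high, with no test. Genes that define skin were present throughout: all 7 of Krt5, Krt14, Krt1, Krt10, Lor, Krt15 and Col1a1 were well above background on every array, with a summed relative intensity of 745 to 1130 on the Cd109-low arrays and 945 to 1360 on the Cd109-high arrays.

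The promoters of 3 neighbouring members are shown because S100a8 and S100a9 had nearly the same pattern over the 8 arrays, whereas S100a7a beside them did not. The mouse annotation places all 10 members on chromosome 3, with S100a7a, S100a8 and S100a9 next to each other, S100a4 separated from S100a3 by S100a2 alone, and S100a10 beside S100a11. RefSeq sequences of build GRCm38.p6 were matched for 8 of the 10 members, all but S100a10 and S100a14. The 250 bases before the listed start follow, 5′ to 3′ in the direction of the gene, with capitals for matches of the motifs searched.
S100a8, chr3:90668821-90669070, plus strand: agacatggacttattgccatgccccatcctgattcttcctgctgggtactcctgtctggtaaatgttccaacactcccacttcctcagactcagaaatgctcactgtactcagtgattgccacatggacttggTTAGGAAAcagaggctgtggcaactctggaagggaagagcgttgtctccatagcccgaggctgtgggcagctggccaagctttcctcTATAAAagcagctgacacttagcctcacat
S100a9, chr3:90695722-90695971, minus strand: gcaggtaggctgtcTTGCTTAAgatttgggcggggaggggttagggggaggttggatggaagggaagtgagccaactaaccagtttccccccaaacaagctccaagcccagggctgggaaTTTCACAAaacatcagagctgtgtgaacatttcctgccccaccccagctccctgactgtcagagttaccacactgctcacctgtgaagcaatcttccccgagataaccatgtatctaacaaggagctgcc
S100a7a, chr3:90654052-90654301, plus strand: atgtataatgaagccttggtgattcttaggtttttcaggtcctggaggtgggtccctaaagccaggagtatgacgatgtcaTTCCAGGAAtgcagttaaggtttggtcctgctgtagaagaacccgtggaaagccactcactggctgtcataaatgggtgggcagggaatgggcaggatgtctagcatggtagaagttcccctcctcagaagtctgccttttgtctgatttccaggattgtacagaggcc

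Motifs were searched on both strands as the TATA box TATAAA, the AP-1 site TGANTCA, the C/EBP site TTNNGNAA and the STAT site TTCNNNGAA. C/EBP factors are regulators of myeloid and epidermal genes, and AP-1 and STAT factors are used by activated keratinocytes. The S100a8 window held TATAAA from base 30 before the start and a C/EBP match from base 117. The S100a9 window held C/EBP matches from bases 236 and 130 and no TATAAA. The S100a7a window held 1 STAT match, from base 169, and none of the other motifs. None of these 3 windows held the AP-1 letters, which were found in the S100a11 window from bases 136 and 38. Of 32851 promoter windows of the same length, 12.4% held TATAAA, 6.75% the AP-1 letters, 36.8% the C/EBP letters and 7.02% the STAT letters, so that a C/EBP match is a common one. These matches describe the sequences only.

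**Figure D1:**
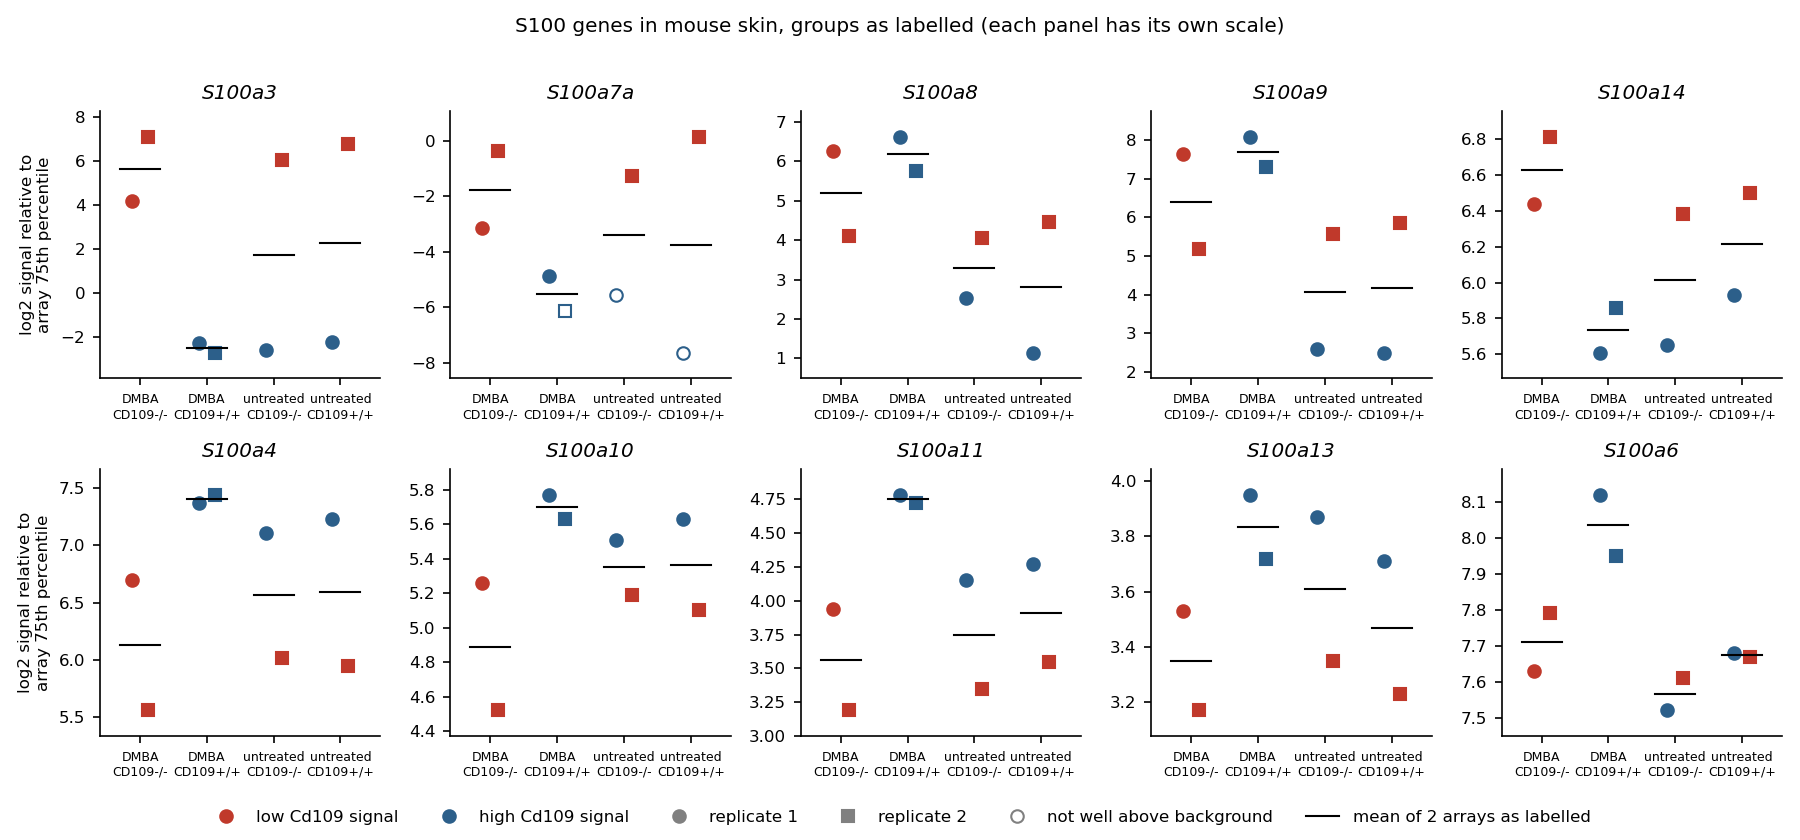
Log2 signal of each S100 gene relative to the 75th percentile of the array (y axis, own scale in each panel) in the 4 groups as labelled (x axis), with circles for replicate 1, squares for replicate 2, open symbols for spots near background, red for a low and blue for a high Cd109 signal, and bars for the mean of 2 arrays. S100a3 lies between 4.21 and 7.09 on the red arrays and between -2.69 and -2.23 on the blue ones, whereas S100a8 and S100a9 are lowest on the 2 blue untreated arrays.

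S100a3 showed the widest range of the 10 members, 9.78 on the log2 scale. It is a cysteine-rich S100 protein of the hair cuticle, which the peptidylarginine deiminase Padi3 modifies in the growing hair. Its log2 signal was 4.21 and 7.09 in DMBA-treated CD109-/- skin, against -2.26 and -2.69 in DMBA-treated CD109+/+ skin. On the untreated arrays labelled CD109-/- it was -2.59 in replicate 1 and 6.04 in replicate 2, against -2.23 in replicate 1 and 6.79 in replicate 2 of those labelled CD109+/+. The signal was thus high on every array with a low Cd109 signal and low on every other array, with a gap of 6.44 between the nearest arrays and a difference of means of 8.47 on the log2 scale. As labelled, the log2 fold change of CD109-/- over CD109+/+ skin was 8.12 after DMBA (SE 3.75, adjusted p = 0.229 from limma, higher in 4 of 4 array pairs) and -0.55 in untreated skin (SE 3.75, adjusted p = 1). The SE as labelled pools the spread of all groups. The SD was 2.03 in DMBA-treated CD109-/- and 0.3 in DMBA-treated CD109+/+ skin. In the untreated pairs, which mix low and high Cd109 signals, it was 6.11 labelled CD109-/- and 6.38 labelled CD109+/+. The labelled p after DMBA thus carries the spread of the untreated pairs. After the exchange of both arrays, S100a3 passed in both treatments, at 8.12 after DMBA (SE 0.89, adjusted p = 0.0136) and 8.83 in untreated skin (SE 0.89, adjusted p = 0.00787). The log2 fold change of DMBA over untreated skin was 3.92 in CD109-/- (SE 3.75, adjusted p = 0.619) and -4.75 in CD109+/+ skin (SE 3.75, adjusted p = 0.683) as labelled, with a difference of 8.67 (SE 5.30, adjusted p = 0.445). In the exchanged arrangement it was -0.77 (95% interval -2.95 to 1.42) in CD109-/- and -0.06 (-2.25 to 2.12) in CD109+/+ skin, with a difference of -0.70 (SE 1.26, adjusted p = 0.769). The genotype call after DMBA, at 6.68 without DMBA CD109-/- replicate 2 and 9.56 without replicate 1, was lost without DMBA CD109+/+ replicate 1 (8.34, adjusted p = 0.0813) or replicate 2 (7.91, adjusted p = 0.0802), and that in untreated skin without the array labelled untreated CD109+/+ replicate 2 (8.46, adjusted p = 0.0516).

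The genes whose pattern over the 8 arrays was most like that of S100a3, by the mean absolute difference of the centred log2 signals among 16763 genes, were Tchh at 0.29, Calhm4 at 0.34 and Padi3 at 0.36. Tchh encodes trichohyalin, an S100-fused-type protein of the inner root sheath, and Padi3 the enzyme that modifies S100a3. Tchh had a log2 signal of 6.08 and 8.58 in DMBA-treated CD109-/- skin, against -0.82 and -0.47 in DMBA-treated CD109+/+ skin. Padi3 had 2.65 and 5.24 in DMBA-treated CD109-/- skin, against -3.22 and -3.93 in DMBA-treated CD109+/+ skin. Both were also high on the array labelled untreated CD109+/+ replicate 2, at 7.97 for Tchh and 4.85 for Padi3, and low on the array labelled untreated CD109-/- replicate 1, at -0.80 and -4.98. The nearest member, S100a7a, was only number 93 in that order, with a mean absolute difference of 1.8.

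Markers of the hair follicle were high and low on the same arrays as S100a3. Of a list of 16 hair shaft and cuticle genes, which also holds the inner root sheath keratins Krt25, Krt27 and Krt71, 14 were tested, and their summed relative intensity was 505 to 2760 on the Cd109-low arrays and 2.62 to 3.64 on the Cd109-high arrays. The lowest of the Cd109-low arrays, at 505, was DMBA-treated CD109-/- replicate 1, which also had the lowest S100a3 signal of those 4. The 3 inner root sheath keratins made up 406 of that sum and the other 11 genes 99.2. On the other Cd109-low arrays they made up 1170, 951 and 798, and the other 11 genes 1590, 720 and 277. All 14 were well above background on the Cd109-low arrays, and 8 or 9 of them on the Cd109-high arrays, where Krt25, Krt32, Krt33b, Krt34 and Krt40 were not well above background on any. The part of hair follicle content in the S100a3 result was not tested.

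**Figure D2:**
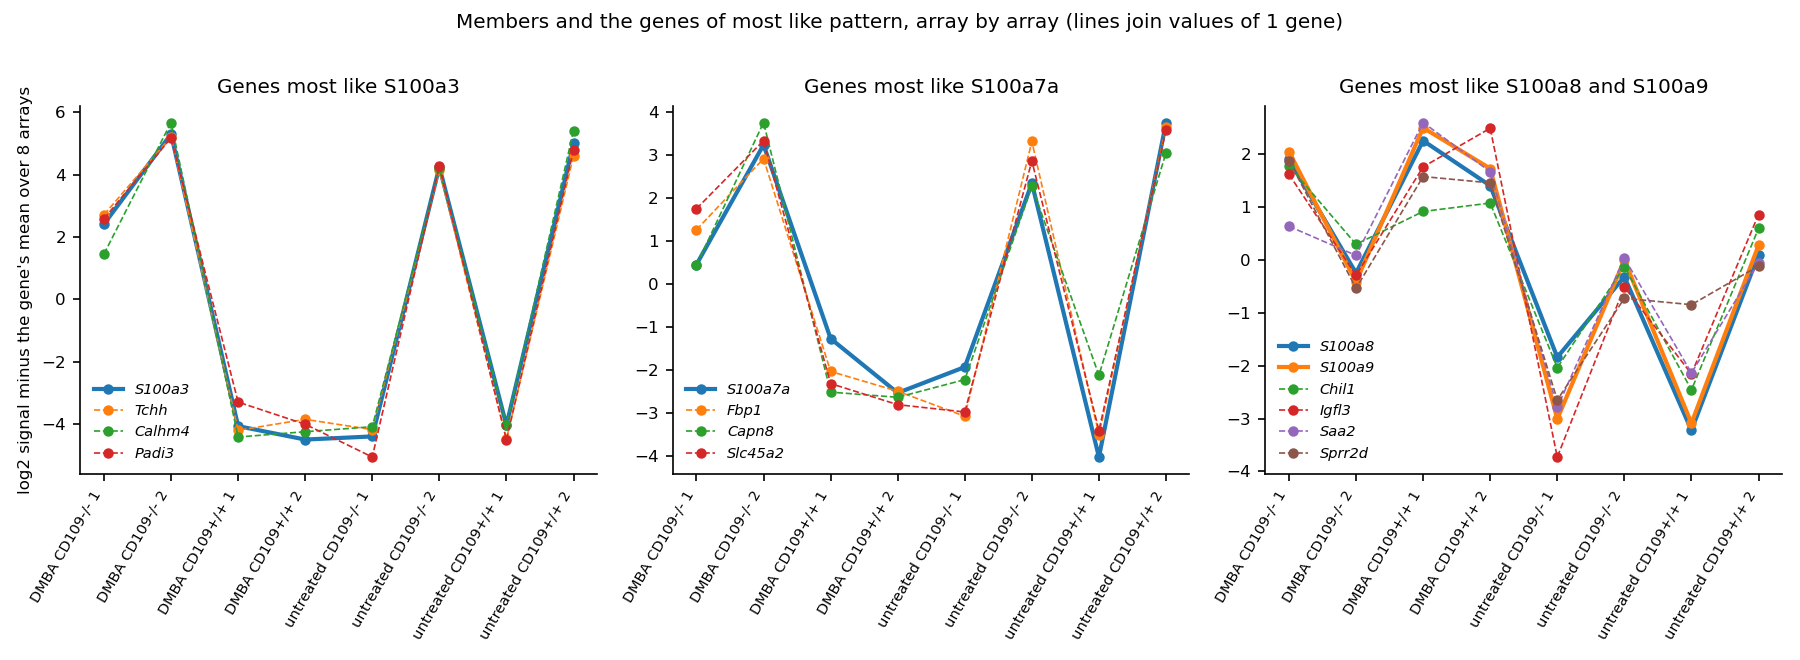
Log2 signal minus the mean of the gene over the 8 arrays (y axis) for S100a3, S100a7a, S100a8 and S100a9 (solid lines) and the genes of most like pattern (dashed lines), array by array as labelled (x axis). S100a8 and S100a9 differ by 0.33 on average, and S100a3 follows Tchh with a mean difference of 0.29.

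S100a7a encodes the mouse relative of human psoriasin and koebnerisin, secreted by keratinocytes of inflamed epidermis, and is among the genes the study named from these same arrays, so that its direction here is not independent. Its log2 signal was -3.16 and -0.38 in DMBA-treated CD109-/- skin, against -4.88 and -6.14 in DMBA-treated CD109+/+ skin, where replicate 2 was not well above background. The untreated arrays labelled CD109-/- had -5.54 in replicate 1, not well above background, and -1.27 in replicate 2. Those labelled CD109+/+ had -7.63 in replicate 1, not well above background, and 0.13 in replicate 2. As with S100a3, the 4 Cd109-low arrays all lay above the 4 Cd109-high arrays, with a gap of 1.72. It was well above background on 4 of 4 Cd109-low arrays and on 1 of 4 Cd109-high arrays, so that it entered the test only through groups in which it was high. As labelled, the log2 fold change of CD109-/- over CD109+/+ skin was 3.74 after DMBA (SE 2.74, adjusted p = 0.398) and 0.35 in untreated skin (SE 2.74, adjusted p = 1). After the exchange it passed in untreated skin, at least 32.5-fold higher in CD109-/- skin against the lowest signal well above background (adjusted p = 0.0369), and not after DMBA (3.74, SE 1.16, adjusted p = 0.0672, with 1 of 2 DMBA-treated CD109+/+ arrays well above background). Without a filter on dim probes the call in untreated skin was lost (adjusted p = 0.0731), and a filter on all 8 arrays leaves S100a7a out. It was also lost without either DMBA-treated CD109+/+ array or any single untreated array, with adjusted p-values of 0.0744 to 0.156. Its response to DMBA in CD109-/- skin was 1.64 as labelled (SE 2.74, adjusted p = 0.776) and -1.20 exchanged (SE 1.16, adjusted p = 0.614). In CD109+/+ skin it was -1.76 as labelled (SE 2.74, adjusted p = 0.85, with 1 of 2 arrays of each group well above background), and no fold is given for the exchanged arrangement, where neither untreated array was well above background. The genes most like it in pattern were Fbp1 at a mean absolute difference of 0.58, Capn8 at 0.60 and Slc45a2 at 0.63, which encode a gluconeogenic phosphatase, a calpain and a melanocyte transporter in that order.

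S100a8 and S100a9 form calprotectin, the heterodimer that makes up much of the cytosolic protein of neutrophils and is also made by stressed keratinocytes. S100a8 had a log2 signal of 6.27 and 4.12 in DMBA-treated CD109-/- skin, against 6.62 and 5.77 in DMBA-treated CD109+/+ skin. On the untreated arrays it was 2.53 in replicate 1 and 4.05 in replicate 2 of those labelled CD109-/-, against 1.15 in replicate 1 and 4.47 in replicate 2 of those labelled CD109+/+. The 2 lowest arrays were therefore the 2 untreated arrays with a high Cd109 signal. S100a9 had 7.63 and 5.17 in DMBA-treated CD109-/- skin, against 8.08 and 7.31 in DMBA-treated CD109+/+ skin. Its untreated values were 2.58 in replicate 1 and 5.58 in replicate 2 labelled CD109-/-, against 2.50 in replicate 1 and 5.86 in replicate 2 labelled CD109+/+. The order of the arrays was nearly that of S100a8, and each of the 2 genes was the one nearest to the other among all 16763, at a mean absolute difference of 0.33.

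Both genes were higher after DMBA in CD109+/+ skin with the arrays as labelled, in 4 of 4 array pairs, without passing the test. The log2 fold change of DMBA over untreated CD109+/+ skin was 3.38 for S100a8 (SE 1.27, adjusted p = 0.409) and 3.52 for S100a9 (SE 1.52, adjusted p = 0.463). In CD109-/- skin it was 1.90 for S100a8 (SE 1.27, adjusted p = 0.501) and 2.32 for S100a9 (SE 1.52, adjusted p = 0.498). After the exchange, both passed in CD109+/+ skin, S100a9 at 5.16 (SE 0.76, adjusted p = 0.0317), which is 35.6-fold, and S100a8 at 4.35 (SE 0.80, adjusted p = 0.0498), which is 20.4-fold. Both calls were lost without either DMBA-treated CD109+/+ array or any single untreated array, with adjusted p-values of 0.0757 to 0.163 for S100a9 and 0.101 to 0.22 for S100a8. The S100a8 value was 3.66 without untreated CD109+/+ replicate 1 and 5.04 without the array labelled untreated CD109-/- replicate 1. In the exchanged arrangement the effect in CD109-/- skin was 0.68 for S100a9 (95% interval -1.20 to 2.56) and 0.93 for S100a8 (-1.04 to 2.91). Between the genotypes, the DMBA effect differed by -1.20 for S100a9 (SE 2.16, adjusted p = 0.783) and -1.48 for S100a8 (SE 1.79, adjusted p = 0.678) as labelled. Exchanged, it did not pass for either gene, at -4.48 for S100a9 (SE 1.08, adjusted p = 0.126) and -3.42 for S100a8 (SE 1.13, adjusted p = 0.185). The log2 fold change of CD109-/- over CD109+/+ untreated skin was -0.10 for S100a9 (SE 1.52, adjusted p = 1) and 0.48 for S100a8 (SE 1.27, adjusted p = 1) as labelled. Exchanged, it was 3.18 for S100a9 (SE 0.76, adjusted p = 0.0581) and 2.42 for S100a8 (SE 0.80, adjusted p = 0.114), so that sign and size depend on the arrangement and neither passed. After DMBA the genotypes overlapped for both genes, with -1.30 for S100a9 (adjusted p = 0.596 as labelled and 0.243 exchanged) and -1.0 for S100a8 (adjusted p = 0.623 as labelled and 0.376 exchanged).

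The 2 DMBA-treated CD109-/- arrays differed in both genes, with replicate 1 near the DMBA-treated CD109+/+ arrays and replicate 2 near the Cd109-low untreated arrays. After S100a9 and S100a8, the genes most like this pair were Chil1 at 0.50, Saa2 at 0.59 and Sprr2d at 0.61 for S100a8, and Saa2 at 0.45, Igfl3 at 0.60 and Sprr2d at 0.65 for S100a9. Saa2 encodes an acute-phase apolipoprotein, Chil1 a chitinase-like protein of macrophages and neutrophils, and Sprr2d a cornified envelope protein of activated keratinocytes. Saa2 had a log2 signal of -0.51 and -1.06 in DMBA-treated CD109-/- skin, against 1.45 and 0.52 in DMBA-treated CD109+/+ skin, and -3.93 and -3.28 on the 2 Cd109-high untreated arrays.

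Markers of neutrophils and of activated keratinocytes were highest on the DMBA-treated CD109+/+ arrays, where the pair was also high. The summed relative intensity of 10 tested neutrophil markers of 12 was 295 and 244 in DMBA-treated CD109-/- skin and 447 and 410 in DMBA-treated CD109+/+ skin, against 74.1 and 152 for the label untreated CD109-/- and 115 and 150 for the label untreated CD109+/+. Between 8 and 10 of them were well above background on each array. Csf3r weighed in every sum, at 6.20 to 7.01 on the Cd109-low and 6.01 to 6.20 on the Cd109-high arrays. Stfa1 varied far more, at 5.86 to 7.58 on the Cd109-low and 2.79 to 8.31 on the Cd109-high arrays. Where it was highest it outweighed Csf3r, so that the largest sums stand in large part for Stfa1. The mean log2 signal of the 10 was 0.11 and -0.66 in DMBA-treated CD109-/- skin and 1.91 and 1.34 in DMBA-treated CD109+/+ skin. It was -1.44 and -0.73 for the label untreated CD109-/- and -0.97 and -0.61 for the label untreated CD109+/+. By this mean, DMBA-treated CD109-/- replicate 2 lay near the Cd109-low untreated arrays. As labelled, 2 of the 10 passed in the DMBA comparison in CD109+/+ skin, both higher: Mmp8, a neutrophil collagenase, at 4.30 (adjusted p = 0.0285, measured on only 1 of the 2 untreated arrays) and Cxcr2, a chemokine receptor, at 3.80 (adjusted p = 0.0493). Of all tested probes 0.184% passed there. With both arrays exchanged, 5 of the 10 passed, all higher, against 3.51% of all tested probes. The 9 tested activated keratinocyte markers of 11 summed to 315 and 296 in DMBA-treated CD109-/- skin and 1150 and 1040 in DMBA-treated CD109+/+ skin, against 114 and 218 for the label untreated CD109-/- and 193 and 258 for the label untreated CD109+/+. On the Cd109-low arrays Krt17 weighed most in these sums, at 7.32 to 7.64, where none of the other markers exceeded 5.49. It alone of the 9 lay wholly higher there than on the Cd109-high arrays, at 6.38 to 6.89, whereas Il1b lay wholly lower and the others overlapped. The mean log2 signal of the 9 was 3.54 and 2.83 in DMBA-treated CD109-/- skin and 5.33 and 5.18 in DMBA-treated CD109+/+ skin. It was at most 2.75 on the untreated arrays. On DMBA-treated CD109-/- replicate 1, where S100a9 was within the range of the DMBA-treated CD109+/+ arrays, both sums were below those of these arrays. In CD109+/+ skin, Krt16, a keratin of stressed epidermis, was higher after DMBA at 3.45 (adjusted p = 0.0461) and so was the cytokine Il1b at 3.53 (adjusted p = 0.0461). These were the 2 of the 9 that passed as labelled, against 0.184% of all tested probes. With both arrays exchanged, 3 of the 9 passed, all higher, against 3.51%. The part of either cell type in the S100a8 and S100a9 values was not tested.

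**Figure D3:**
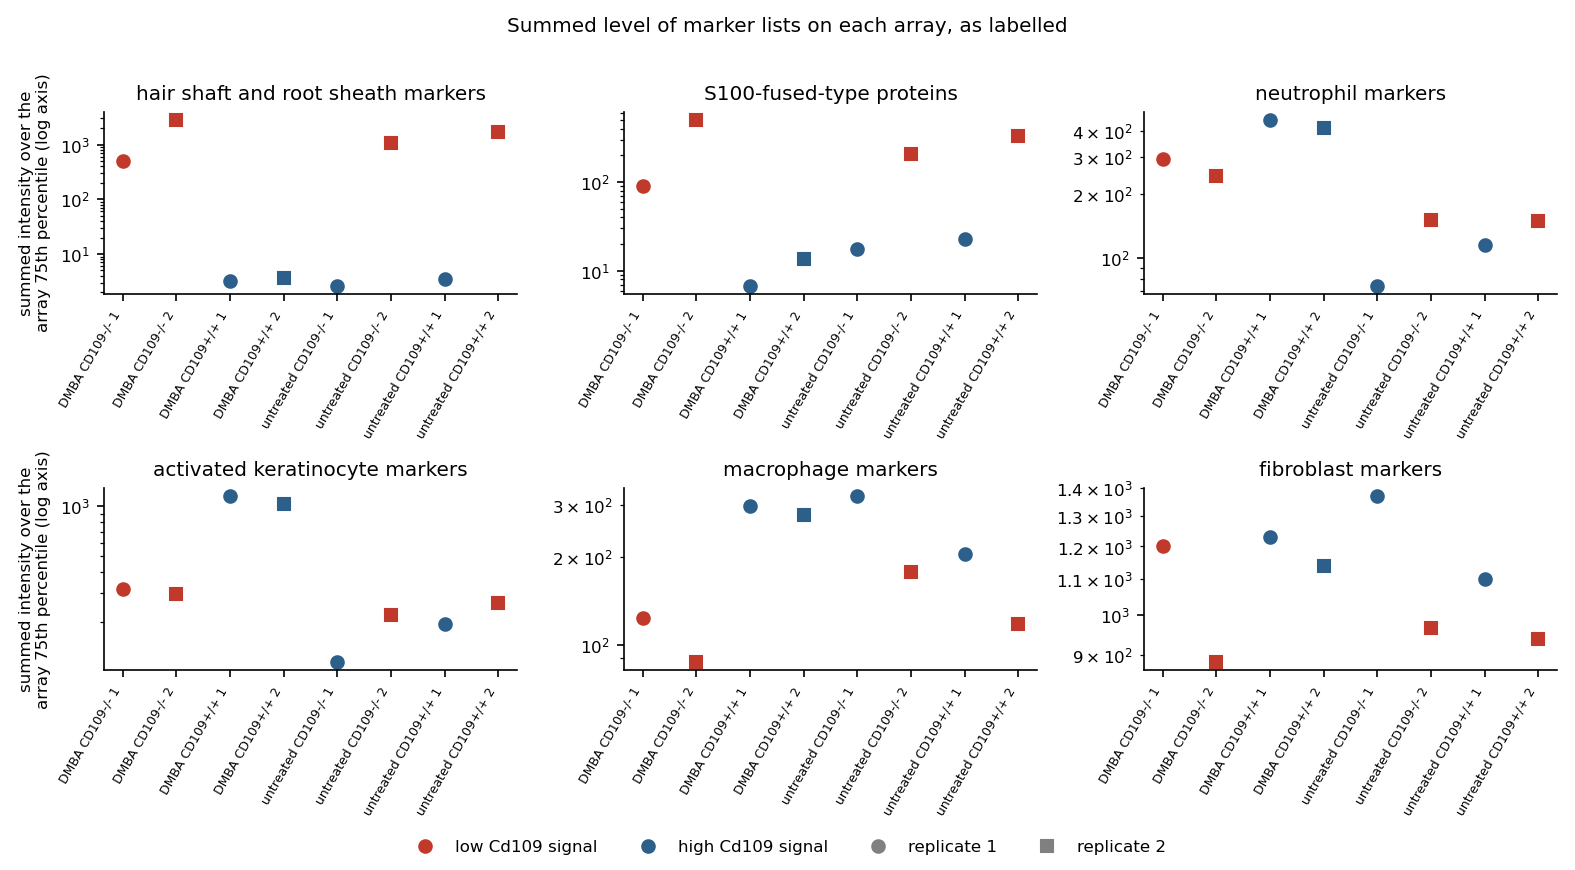
Summed intensity of the tested genes of 6 marker lists over the 75th percentile of the array (y axis, log scale) on each array as labelled (x axis), with circles for replicate 1, squares for replicate 2, red for a low and blue for a high Cd109 signal. Hair shaft and root sheath markers lie between 505 and 2760 on the red arrays and between 2.62 and 3.64 on the blue ones, and neutrophil markers are highest, at 447 and 410, in DMBA-treated CD109+/+ skin.

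S100a14 is an epithelial member of the family, expressed in stratified epidermis. Its log2 signal was 6.44 and 6.81 in DMBA-treated CD109-/- skin, against 5.61 and 5.86 in DMBA-treated CD109+/+ skin. The arrays labelled untreated CD109-/- had 5.65 in replicate 1 and 6.38 in replicate 2, against 5.93 in replicate 1 and 6.50 in replicate 2 labelled CD109+/+. The Cd109-low arrays again lay above the Cd109-high ones, with a small gap of 0.45. As labelled, the log2 fold change of CD109-/- over CD109+/+ skin was 0.89 after DMBA (SE 0.33, adjusted p = 0.17) and -0.20 in untreated skin (SE 0.33, adjusted p = 1). In the exchanged arrangement it passed after DMBA at 0.89 (SE 0.19, adjusted p = 0.0331) and not in untreated skin, at 0.65 (SE 0.19, adjusted p = 0.0868). That call held without DMBA CD109-/- replicate 1 and was lost without any other single array, with adjusted p-values of 0.0563 to 0.158. S100a16, its neighbour on the chromosome and no member, kept the same order, with 5.96 to 6.41 on the Cd109-low arrays and 5.20 to 5.56 on the Cd109-high arrays. Of all 36913 tested probes, 13% lay wholly higher in this way.

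S100a10 and S100a11 are the partners of annexins, S100a10 in a complex with Anxa2 at the plasma membrane and S100a11 with Anxa1. S100a11 had a log2 signal of 3.94 and 3.19 in DMBA-treated CD109-/- skin, against 4.78 and 4.72 in DMBA-treated CD109+/+ skin. Its untreated values were 4.15 in replicate 1 and 3.35 in replicate 2 labelled CD109-/-, against 4.27 in replicate 1 and 3.55 in replicate 2 labelled CD109+/+. All Cd109-low arrays lay below all Cd109-high arrays, with a gap of 0.21. After DMBA the log2 fold change of CD109-/- over CD109+/+ skin was -1.18, as labelled with an SE of 0.41 (adjusted p = 0.154) and exchanged with an SE of 0.25 (adjusted p = 0.0336), where it passed. This call too held without DMBA CD109-/- replicate 1 and was lost without any other single array, with adjusted p-values of 0.0585 to 0.149. S100a10 had 5.26 and 4.52 in DMBA-treated CD109-/- skin, against 5.77 and 5.63 in DMBA-treated CD109+/+ skin, and on the untreated arrays 5.51 and 5.19 labelled CD109-/-, against 5.63 and 5.10 labelled CD109+/+. Its order by Cd109 signal was that of S100a11, but its fold change after DMBA of -0.81 did not pass as labelled (SE 0.32, adjusted p = 0.182) or exchanged (SE 0.25, adjusted p = 0.0656). Both annexin partners kept this order too: Anxa2 lay between 7.22 and 7.65 on the Cd109-low and between 7.79 and 7.97 on the Cd109-high arrays, and Anxa1 between 6.75 and 7.12 on the Cd109-low and between 7.29 and 7.38 on the Cd109-high arrays. Of all 36913 tested probes, 14.2% lay wholly lower in this way. Among the partners named below for S100a13 and S100a6, Fgf1 lay wholly lower as well, whereas Il1a and Cacybp overlapped.

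S100a4, known as metastasin and as a marker of fibroblasts and motile cells, was measured by 2 probes that kept the same order of groups. Its brighter probe gave 6.70 and 5.56 in DMBA-treated CD109-/- skin, against 7.37 and 7.44 in DMBA-treated CD109+/+ skin. On the untreated arrays it gave 7.11 in replicate 1 and 6.02 in replicate 2 labelled CD109-/-, against 7.23 in replicate 1 and 5.95 in replicate 2 labelled CD109+/+. The other probe gave 6.02 and 4.69 in DMBA-treated CD109-/- skin, against 6.74 and 6.87 in DMBA-treated CD109+/+ skin. The Cd109-low arrays lay below the Cd109-high arrays with a gap of 0.41 on the brighter probe, the opposite order to S100a3. Its log2 fold change after DMBA was -1.28 and did not pass as labelled (SE 0.61, adjusted p = 0.240) or exchanged (SE 0.35, adjusted p = 0.0535). The other probe had -1.45 for the same comparison. Fibroblast markers, 7 of 7 tested, summed to 884 to 1200 on the Cd109-low and 1100 to 1370 on the Cd109-high arrays, and 11 of 11 macrophage markers to 87.2 to 177 on the Cd109-low and 204 to 322 on the Cd109-high arrays. Their part in the S100a4 values was not tested.

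S100a13, a partner in the release of Fgf1 and Il1a from cells, had a log2 signal of 3.53 and 3.17 in DMBA-treated CD109-/- skin, against 3.95 and 3.72 in DMBA-treated CD109+/+ skin. The untreated arrays gave 3.87 and 3.35 labelled CD109-/-, against 3.71 and 3.23 labelled CD109+/+. It followed the order of S100a10 and S100a11 with a gap of 0.18, and its log2 fold change after DMBA of -0.48 did not pass as labelled (SE 0.28, adjusted p = 0.305) or exchanged (SE 0.17, adjusted p = 0.0921). S100a6, or calcyclin, a binder of Cacybp, varied least of all members, over a range of 0.60. It had 7.63 and 7.79 in DMBA-treated CD109-/- skin, against 8.12 and 7.95 in DMBA-treated CD109+/+ skin. The untreated arrays gave 7.52 and 7.61 labelled CD109-/-, against 7.68 and 7.67 labelled CD109+/+. Its 2 highest arrays were the DMBA-treated CD109+/+ ones, and the log2 fold change of DMBA over untreated in CD109+/+ skin was 0.36 as labelled (SE 0.16, adjusted p = 0.463) and 0.44 exchanged (SE 0.13, adjusted p = 0.136).

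By the Cd109 signal of the arrays, 3 of the 10 members lay wholly higher on the 4 Cd109-low arrays, S100a3, S100a7a and S100a14, where 13% of all 36913 tested probes did. Another 4 lay wholly lower, S100a4, S100a10, S100a11 and S100a13, where 14.2% of all tested probes did. S100a6, S100a8 and S100a9 overlapped. S100a3 and S100a4, which only S100a2 separates on the chromosome, therefore ran in opposite directions.

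Over the tests as labelled, 0 of 10 members passed in any of the 5 comparisons. The spread in these tests was pooled over all groups, and each untreated pair as labelled mixes a low and a high Cd109 signal. The background was low: 0.0921% of all tested probes passed between the genotypes after DMBA, 0.00542% between them in untreated skin, 0.184% for DMBA in CD109+/+ skin, and 0% both for DMBA in CD109-/- skin and for the difference of the DMBA effects. At an unadjusted p under 0.05, these last 2 comparisons had 5272 and 5683 probes. The members' median log2 fold change after DMBA was -0.65, against 0.07 over all tested probes, and 3 of the 10 were positive. With both arrays exchanged, 3 of 10 members passed between the genotypes after DMBA, S100a3 and S100a14 higher and S100a11 lower, against 20.1% of all 37139 tested probes. In untreated skin 2 passed, S100a3 and S100a7a, both higher, against 8.89% of all probes. For DMBA in CD109+/+ skin 2 passed, S100a8 and S100a9, both higher, against 3.51% of all probes. For DMBA in CD109-/- skin 0 passed, against 0.0135%, and for the difference of the DMBA effects 0 passed, against 0.0269%. The members' shares after DMBA and in untreated skin are read against a background in which many probes passed. Without both arrays, 0 members passed in any comparison, and 0.514% of all 38351 tested probes passed for DMBA in CD109+/+ skin, against 0% in each of the other 4 comparisons.

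**Figure D4:**
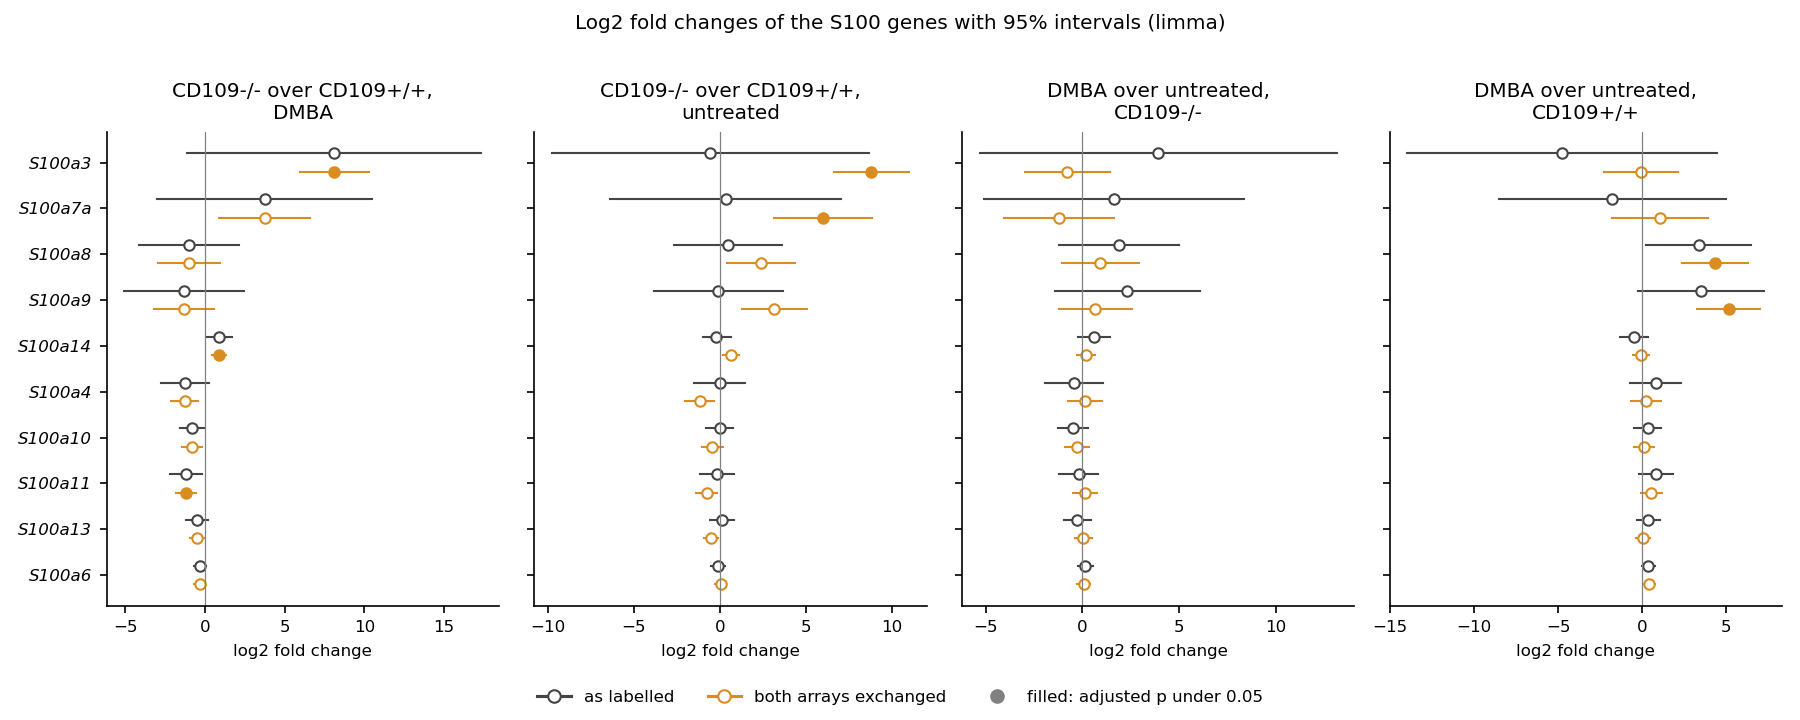
Log2 fold change of each S100 gene (x axis) with its 95% interval from limma, by gene (y axis), for the genotype comparisons after DMBA and in untreated skin and for DMBA over untreated skin in either genotype, as labelled (dark grey) and with both arrays exchanged (orange), with filled points at an adjusted p under 0.05. No grey point is filled, and the orange points of S100a3, S100a14 and S100a11 are filled in the comparison after DMBA, those of S100a3 and S100a7a in untreated skin and those of S100a8 and S100a9 for DMBA in CD109+/+ skin.

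Other genes of the S100 system, from lists chosen with earlier results known, gave the following. Of 6 further S100 genes, S100a1, S100a5, S100a16, S100b, S100g and S100z, all 6 were tested and 0 passed as labelled, with a median log2 fold change of 0.03 after DMBA. The smallest p among them was that of S100g, a calcium buffer known from intestine, which was not well above background on either DMBA-treated CD109-/- array and at least 3.07-fold lower than in DMBA-treated CD109+/+ skin (adjusted p = 0.106). S100z had 1.32 (adjusted p = 0.135), with 1 of 2 DMBA-treated CD109+/+ arrays well above background. Of 18 receptors, partners and modifying enzymes, which include Ager, the receptor for advanced glycation products, and Tlr4, both receptors of calprotectin, 18 were tested and 0 passed as labelled, with a median of -0.51. Ager had 1.01 after DMBA (adjusted p = 0.119) and Cxcr3, a chemokine receptor of T cells, -2.17 (adjusted p = 0.111). With both arrays exchanged, 2 of the 18 passed as higher and 5 as lower after DMBA. In that comparison 20.1% of all 37139 tested probes passed, 4302 higher and 3147 lower. Of 7 S100-fused-type genes, 6 were tested and 0 passed as labelled, with a median of 4.17. With both arrays exchanged, 3 passed as higher after DMBA, against the same 20.1% of all tested probes. Tchh had 7.97 after DMBA (adjusted p = 0.229) and Crnn, the epidermal protein cornulin, 6.96 (adjusted p = 0.233). The list was split, so that its median stands for neither part. Tchh, Tchhl1 and Crnn lay wholly higher on the Cd109-low arrays, by 8.33, 8.18 and 7.28 between the means, where 13% of all 36913 tested probes lay wholly higher. Flg2, Hrnr and Rptn overlapped, with differences of -0.03, 0.08 and 0.23.

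The remaining marker lists after DMBA, CD109-/- over CD109+/+ skin as labelled, were as follows. Of 11 macrophage markers 0 passed, with a median of -1.70, and Cd163 had -2.20 (adjusted p = 0.0943) and Cd68 -2.51 (adjusted p = 0.105). Of the 14 tested hair markers 0 passed, with a median of 9.63, or 9.21 with the 5 that were not well above background in CD109+/+ skin at their bound. Krt33a had 12.10 (adjusted p = 0.17, with 1 of 2 CD109+/+ arrays well above background) and Krt35 11.02 (adjusted p = 0.176). Of 7 fibroblast markers 0 passed, with a median of -0.49, and Pdgfra had -0.94 (adjusted p = 0.108) and Col1a1 0.41 (adjusted p = 0.175). Among 7 genes that define skin 0 passed, with a median of 0.14, and Krt14 had -1.42 (adjusted p = 0.105). Neutrophil markers had a median of -1.86 with 0 passed. Activated keratinocyte markers had a median of -2.94, and 1 passed, Il1b, lower at -4.58 (adjusted p = 0.0356), where 0.0921% of all tested probes passed. These counts depend on the arrangement. With both arrays exchanged, 12 of 14 hair markers passed as higher, and 7 of 11 macrophage and 5 of 10 neutrophil markers as lower. Of 9 activated keratinocyte markers, 1 passed as higher and 5 as lower. Of the fibroblast markers 0 passed, and of those that define skin 1, lower. The share of all tested probes was 20.1%.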

How the data were processed

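RNA from whole skin was labelled with Cy3 and hybridized to 1-colour Agilent mouse arrays by the authors, with Agilent Feature Extraction 11.5.1.1 named in the submitters' processing notes. The deposited intensity of each spot is linear, already background-subtracted, and not normalized between arrays, and the deposited series table holds the same intensity times 1 constant per array, whose origin is not given in the sources used here. Control spots and flagged outlier spots were left out, spots of a probe were averaged, and 55458 of 55681 probes were kept. The log2 intensity minus that of the array's 75th percentile was tested in R 4.3.3 with limma 3.58.1 (lmFit and eBayes, all 8 arrays, 1 mean per group), for probes detected above background on each array of 1 group or more, with Benjamini-Hochberg adjustment over all of them and a threshold of 0.05. A lower bound on a fold is set against the lowest signal well above background. RefSeq accessions named 28026 of 29796 such probes, and a gene was represented by its brightest tested probe. The fit was tested on simulated data with the spread of the DMBA-treated CD109+/+ pair, whose arrays correlated at 0.993. The other pairs as labelled correlated at 0.973, 0.958 and 0.955, so the simulation does not cover their wider spread. Named were all members, the 3 other genes most like 4 of them, and from each list up to 3 that passed or the 2 of smallest p after DMBA. Members, lists and rule were chosen with earlier results of these data known. Alternatives were other normalizations, background correction, filters, variance models, the methods' t-test, a replicate block, and leaving out or exchanging arrays. The number of arrays limits the precision.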

Additional observations from a re-analysis of the deposited data

Results flagged for a closer look

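S100a14 was higher after DMBA in CD109-/- skin in 4 of 4 array pairs and lower in CD109+/+ skin in 4 of 4 array pairs, with the arrays as labelled. The log2 fold change of DMBA over untreated skin was 0.61 (SE 0.33) in CD109-/- and -0.48 (SE 0.33) in CD109+/+ skin, and the difference of 1.08 (SE 0.47) did not pass, with an adjusted p of 0.336 from limma. With both arrays exchanged the difference was 0.24 (SE 0.27, adjusted p = 0.624). Groups of 2 arrays are too small for a check of single outlying arrays.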

How the results depend on the processing

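As labelled, 0 members passed in every comparison under each alternative, with these exceptions. The methods' t-test without adjustment called 1 member after DMBA, S100a3, and exchanging both arrays gave 3 members between the genotypes after DMBA, 2 in untreated skin and 2 for DMBA in CD109+/+ skin. The log2 fold changes of the members between the genotypes after DMBA kept their sign throughout, except S100a8, which was 0.07 without DMBA CD109-/- replicate 2 (range over single arrays left out -2.07 to 0.07). The difference of the DMBA effect turned to 0.18 for S100a8 without untreated CD109+/+ replicate 1 (-3.14 to 0.18), and for S100a9 it ranged from -2.88 to 0.48 over single arrays left out, above 0 without DMBA CD109-/- replicate 2 (0.03), untreated CD109+/+ replicate 1 (0.48) or untreated CD109-/- replicate 2 (0.30). The filter on all 8 arrays left out S100a7a, and the difference could not be fitted on only the arrays compared. The replicate block called 0 members in each comparison. The labels do not say whether the numbers pair the arrays, and 2 numbers per group are too few to settle it: the correlation of the replicate differences was -0.08 to 0.73 over the 6 pairs of groups. The numbers were not taken as pairs.

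With both arrays exchanged, in alternatives chosen after seeing the data, the counts moved more. Between the genotypes after DMBA, 6 members passed with median centring, 7 with normexp, 7 with a trend and robust variance, 1 with no filter, and 0 to 8 without single arrays. It was 0 without either DMBA CD109+/+ array and 8 without DMBA CD109-/- replicate 1, and otherwise 1, S100a3. In untreated skin, 4 passed with normexp, 4 with the trend and robust variance, 1 with no filter and 0 to 6 without single arrays. For DMBA in CD109+/+ skin, 3 passed with the trend and robust variance, 1 with quantile normalization, 0 with no filter and 0 to 2 without single arrays, 0 without either DMBA CD109+/+ array or any untreated array. For the difference of the DMBA effect it was 0 to 1, S100a9 without DMBA CD109-/- replicate 1. The cause was not tested.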

Other observations

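A pair of S100 genes outside the lists was looked up after the other values had been seen. S100a2, which lies between S100a3 and S100a4, had a log2 signal of -3.22 to -2.15 on the Cd109-low arrays and -3.71 to -3.02 on the Cd109-high arrays, so the arrays overlapped. S100a7l2, a relative of S100a7a, had -3.18 to -1.16 on the Cd109-low arrays and -2.06 to -0.52 on the Cd109-high arrays, which overlapped too and did not share the order of S100a7a.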
